A study of Mus musculus with 89 samples.

Results

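The transcriptome described here is that of 3 RNA-seq libraries labelled control, out of 6 RNA-seq libraries and 89 samples in a mouse embryonic stem cell series on depletion of the histone variant H2A.Z. The libraries were taken by their labels, and the genes by having a symbol: 26276 of the 27179 rows of the count table. All 3 libraries came from V6.5, a male mouse line, with the genotype H2afz-FKBP-V, so every library carries the degradation tag on the H2A.Z gene H2afz. Cells grew in serum-free medium with 1000 U/mL LIF, 1 µM of the MEK inhibitor PD0325901 and 3 µM of the GSK3 inhibitor CHIR99021. What the control cells received in place of the dTAG molecule is not given in the sources used here, nor is whether the line is 1 clone. The labels also do not say that the RNA came from separate cultures, so the spread between libraries may be technical, and no other group was compared.

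Embryonic stem cells in this medium are held in the naive state, the counterpart of the early epiblast before implantation. LIF acts through its receptor and STAT3, the GSK3 inhibitor relieves repression of pluripotency genes through beta-catenin, and the MEK inhibitor blocks the ERK signal that FGF4 from the cells themselves would otherwise raise. Naive cells are known for a low level of DNA methylation and for silence of most lineage genes, many of which carry Polycomb marks at promoters rich in CpG.

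The named genes held 14244326, 15652795 and 14091745 counts in replicates 1, 2 and 3. Levels are given as CPM, counts per 1000000 counts in named genes, and are not divided by gene length, so a longer transcript gives a higher CPM at the same number of molecules. A level of 1 CPM stands for 14.1 to 15.7 counts. A count of 0 allows up to 3 counts, or 0.211, 0.192 and 0.213 CPM in replicates 1, 2 and 3, which covers counting error only. Ribosomal RNA rows took 20.6%, 26.1% and 24.5% of the counts, and the share was lowest in replicate 1.

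Of the named genes, 13593 of 26276 rows (51.7%) were present at 1 CPM or more in every library, and so were 12396 of 21122 protein-coding genes (58.7%). A smaller set of 8071 genes (30.7%) reached 10 CPM in all 3 libraries and held 96.2% of the counts. The 1392 genes at 100 CPM or more in all 3 held 70.7% of the counts. At the other end, 4243 genes (16.1%) had no count in any library, and 8440 (32.1%) had counts but fell under 1 CPM in at least 1 library. This last class took 0.438% of the counts. Protein-coding genes formed a broad peak of levels above 1 CPM with a long shoulder below it, whereas long noncoding RNAs lay mostly below: 340 of 2145 (15.9%) reached 1 CPM in all 3 libraries and 545 (25.4%) had no count. Of 643 microRNA genes, 391 (60.8%) had no count, in libraries whose preparation does not select small RNAs.

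**Figure D1:**
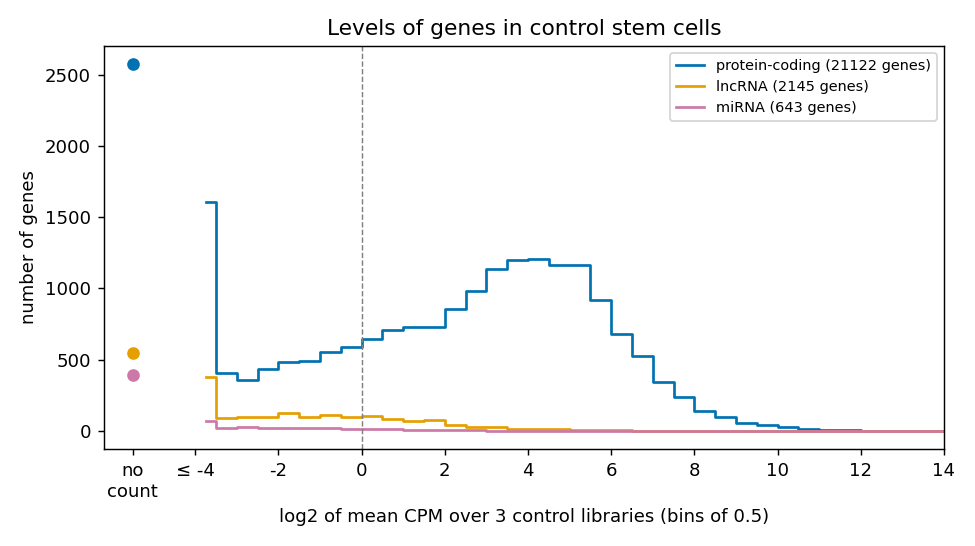
Number of genes by level. The horizontal axis is the log2 of the mean CPM over the 3 control libraries in bins of 0.5, with genes that had no count as separate dots at the left, and the dashed line marks 1 CPM. Lines are protein-coding, long noncoding and microRNA genes; 2574 of 21122 protein-coding genes had no count.

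The line between silent and expressed genes is not sharp at this depth. In all, 2874 genes (10.9%) were at 1 CPM or more in some libraries and under it in others. The 3 genes with a mean just under 1 CPM were Usp46os2, Gipr and Aph1c, and the 3 just above it were Mesp2, 9530052C20Rik and Kirrel3os. Mesp2, a segmentation gene of the mesoderm, stood at 1.47, 0.319 and 1.21 CPM. Kirrel3os stood at 2.74, 0.192 and 0.0710 CPM. All 6 of these genes were under 1 CPM in at least 1 library, so none of them was counted as expressed.

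Promoters were read beside these levels, and the sequences of 5 genes show the range of their CpG content: the DNA demethylase gene Tet2 (365, 351 and 385 CPM), the pluripotency factor gene Nanog (232, 225 and 213 CPM), the cleavage-stage gene Zscan4f (1408, 1027 and 1009 CPM), the neuronal transcription factor gene Neurod1 and the olfactory receptor gene Olfr15. The last 2 had no count in any library and were chosen after their values were seen, as a CpG-rich and a CpG-poor example of silence. Each sequence is the 250 bases before the start of the gene's first listed RefSeq transcript on GRCm38.p6 (the assembly of mm10), read 5′ to 3′ on the strand of the gene, with each CG dinucleotide in capitals. They lie at chr3:133544391-133544640 on the minus strand (Tet2), chr6:122707239-122707488 on the plus strand (Nanog), chr7:11397665-11397914 on the plus strand (Zscan4f), chr2:79456637-79456886 on the minus strand (Neurod1) and chr16:3838725-3838974 on the plus strand (Olfr15).
Tet2: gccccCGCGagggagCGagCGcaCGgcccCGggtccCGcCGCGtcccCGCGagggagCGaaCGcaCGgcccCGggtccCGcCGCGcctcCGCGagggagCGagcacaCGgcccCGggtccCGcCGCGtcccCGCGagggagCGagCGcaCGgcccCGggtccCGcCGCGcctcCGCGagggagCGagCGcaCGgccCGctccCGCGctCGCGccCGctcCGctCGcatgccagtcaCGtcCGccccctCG
Nanog: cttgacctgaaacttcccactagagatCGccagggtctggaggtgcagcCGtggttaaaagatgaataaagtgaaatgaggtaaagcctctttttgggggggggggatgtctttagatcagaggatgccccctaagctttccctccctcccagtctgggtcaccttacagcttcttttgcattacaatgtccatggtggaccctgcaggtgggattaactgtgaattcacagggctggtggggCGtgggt
Zscan4f: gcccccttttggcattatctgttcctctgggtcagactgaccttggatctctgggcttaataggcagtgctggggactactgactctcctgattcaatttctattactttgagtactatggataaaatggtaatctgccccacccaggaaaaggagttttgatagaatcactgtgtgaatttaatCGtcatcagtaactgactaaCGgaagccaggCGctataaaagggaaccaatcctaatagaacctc
Neurod1: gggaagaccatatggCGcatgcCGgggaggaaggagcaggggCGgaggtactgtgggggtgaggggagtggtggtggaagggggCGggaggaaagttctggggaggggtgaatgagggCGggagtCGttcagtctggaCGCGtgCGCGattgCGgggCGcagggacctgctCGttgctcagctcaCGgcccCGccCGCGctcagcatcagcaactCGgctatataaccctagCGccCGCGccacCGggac
Olfr15: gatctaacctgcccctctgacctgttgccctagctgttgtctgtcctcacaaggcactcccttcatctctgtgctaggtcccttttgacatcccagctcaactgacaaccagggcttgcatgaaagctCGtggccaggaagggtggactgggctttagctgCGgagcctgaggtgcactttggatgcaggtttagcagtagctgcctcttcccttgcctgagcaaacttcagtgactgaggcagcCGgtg
The Tet2 stretch holds 51 CG dinucleotides and that of the silent Neurod1 holds 22. Those of Nanog, Zscan4f and Olfr15 hold 3 each, although Nanog and Zscan4f were among the abundant genes and Olfr15 was silent.

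Over all protein-coding genes, CpG content was scored as the observed number of CG divided by that expected from the C and G content, in the 250 bases before to 50 after each start. A listed promoter was found for 16537 of 21122 genes (78.3%, and 76.7% to 80.2% in each class), too few to speak for whole classes, so a check on the classes is void and the values describe the genes with a promoter. Among those, the median ratio was 0.129 for the 2058 genes with no count and 0.289 for the 4717 with counts but under 1 CPM. It was 0.680 for the 3786 genes from 1 to 10 CPM, 0.789 for the 5045 from 10 to 100 CPM and 0.855 for the 931 at 100 CPM or more. The largest step between neighbouring classes lay at 1 CPM. A ratio of 0.6 or more was seen in 1.65% of the silent genes and in 84.0% of those at 100 CPM or more. Without the olfactory, vomeronasal and taste receptor genes the silent class had a median of 0.150 (1172 genes).

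**Figure D2:**
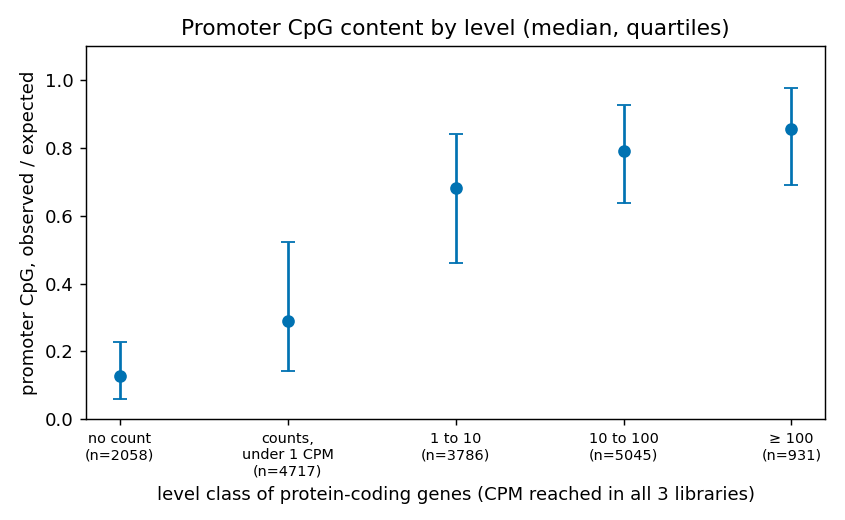
CpG observed over expected in 300-base promoters, by level class of protein-coding genes with a listed promoter. Points are medians and bars are quartiles over genes; the median goes from 0.129 with no count to 0.855 at 100 CPM or more.

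Exceptions stood on both sides. Among the 931 genes at 100 CPM or more, 24 had a ratio under 0.2, and these included the cleavage-stage genes Zscan4b and Gm4340, the histone methylation gene Setd5 and the splicing factor gene Rbm25. Of the 12 cleavage-stage genes on the list with a promoter, 10 had a ratio under 0.2. The lower quartile over all protein-coding genes with a promoter was 0.240. The 12 include 4 Zscan4 copies and several Usp17l copies, so they are not independent genes. Among the 2058 silent genes, 34 had a ratio of 0.6 or more, such as Neurod1 (0.837 over its 300 bases), the neuropeptide gene Tac1 (1.01) and the GABA receptor gene Gabra2 (0.721). The median over all protein-coding genes with a promoter was 0.580. Among lists of genes for finished cell functions, it was 0.230 for 10 liver genes, 0.226 for 11 muscle genes and 0.437 for 8 neuron genes. Among lists that every dividing cell uses, it was 0.911 for 18 genes of mitosis and 0.953 for 22 genes of RNA polymerase II pausing and elongation. For 17 genes of glycolysis it was 0.678. Lineage lists, mostly low in level here, did not all have low ratios. The median was 0.817 for 15 neuroectoderm genes, 0.689 for 15 mesoderm and definitive endoderm genes and 0.625 for 22 Hox genes. It was 0.605 for 14 trophoblast genes and 0.485 for 10 primitive endoderm genes.

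Short motifs were counted by letters alone, on both strands, in the 300-base windows; none of the letters searched contains another. A gene was counted where any of its promoters matched, over the 16537 protein-coding genes with one, and the share of the 32851 single promoters of all genes is given last. A TATAAA was present in 34.0% of the silent genes, 9.34% of those at 100 CPM or more and 14.3% of all classes together, and in 13.6% of single promoters. CCGGAA, the core letters bound by ETS factors, was present in 2.09%, 32.9% and 21.4%, and in 14.9% of single promoters. CCAAT was present in 40.5%, 45.5% and 42.0%, and in 37.4% of single promoters, so it differed little between the classes. The octamer-Sox composite, the letters of an Oct4 site beside a Sox2 site, was present in 2 of the 32851 promoters, and both belong to Nanog. It lies in the Nanog sequence above as tttgcattacaatg. These are matches of letters and not measured binding. The median share of G and C was 40.7% in the silent genes and 62.2% in those at 100 CPM or more. TATAAA holds neither letter and CCGGAA holds a CG, and the part of base composition in their shares was not tested. Of the 2058 silent genes with a promoter, 1172 remain without the olfactory, vomeronasal and taste receptor genes. The motif shares and the share of G and C were not taken without these receptor genes.

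The naive genes were present throughout. All 20 genes of the naive pluripotency list reached 1 CPM in all 3 libraries, against 51.7% of all rows. At 10 CPM it was 19 of them, against 30.7% of all rows. Of the 5 genes that mark the cells here, Dppa5a, an RNA-binding protein of the early embryo, stood at 774, 789.5 and 836 CPM. Tfcp2l1, a transcription factor downstream of LIF, stood at 464, 401 and 426 CPM. Tet2, Nanog and Zscan4f are given above, and all 5 were over 200 CPM in every library. Esrrb, an orphan nuclear receptor of the naive network, stood at 216, 211 and 219 CPM. Lower and less even were Nr0b1, an orphan nuclear receptor gene (13.9, 13.4 and 26.6 CPM), and Gbx2, a homeobox gene induced by LIF (2.53, 8.94 and 4.26 CPM). Tcl1, a cofactor of AKT kinase, was low but even, at 12.8, 13.0 and 10.7 CPM.

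All 13 genes of the wider pluripotency core were also present. Pou5f1, which encodes Oct4, stood at 278, 238 and 234 CPM, and Sox2, its DNA-binding partner, at 176, 189 and 190.3 CPM. Rif1, a telomere and replication-timing factor, stood at 848, 809.8 and 808 CPM. Lin28b, which blocks let-7 maturation, was the lowest at 6.18, 2.75 and 4.68 CPM. Of 14 genes of the formative and primed states 9 reached 1 CPM in all 3 libraries, against 58.7% of protein-coding genes. At 10 CPM it was 6, led by Etv5 and Dnmt3a, against 7502 of 21122 protein-coding genes. Defining regulators were among the low ones. Otx2, a head and epiblast regulator, stood at 0.913, 0.0639 and 0.639 CPM. Fgf5, the usual primed marker, stood at 0.772, 1.21 and 0.923 CPM. Pou3f1 was higher, at 10.5, 10.4 and 10.0 CPM.

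**Figure D3:**
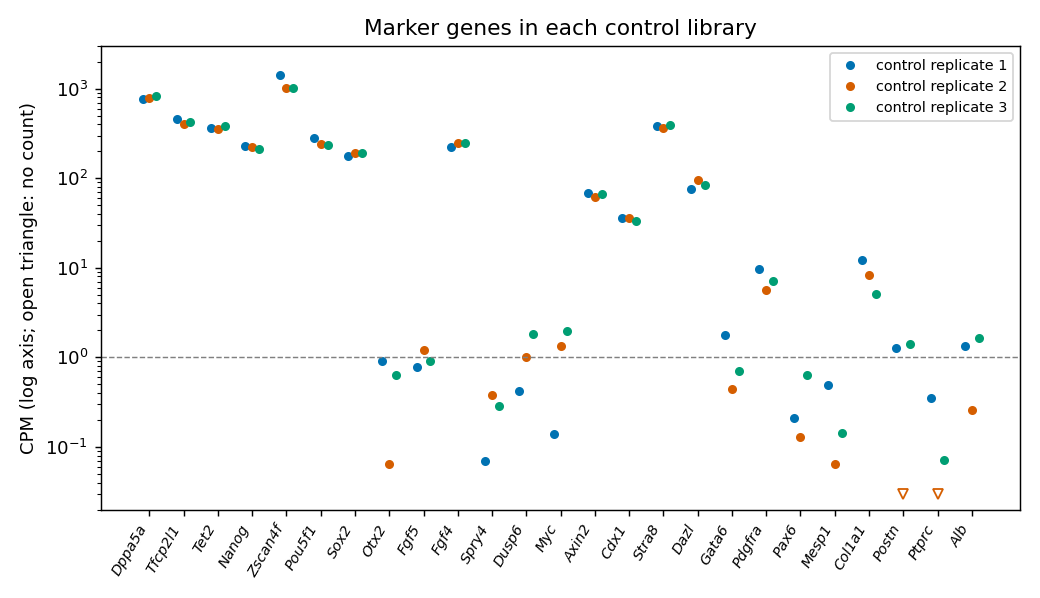
Level of 25 genes in each of the 3 control libraries, in CPM on a log axis, with open triangles for no count and a dashed line at 1 CPM. The 5 marker genes, Dppa5a to Zscan4f, lie over 200 CPM in every library, while Otx2, Spry4, Pax6 and Mesp1 lie under 1 CPM in every library.

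Genes of the cleavage-stage-like program, which a minority of stem cells is known to pass through, were mostly present, and the Zscan4 copies were abundant. Of 19 such genes, 18 reached 1 CPM in all 3 libraries, against 51.7% of all rows, and Usp17ld had no count. The 6 genes Zscan4a to Zscan4f had means from 574 to 1148 CPM and together made up 4371 ± 718 CPM (SD, n = 3). Among the other members, Gm4340 had a mean of 793 CPM, and the next highest was Eif1a with 102 CPM. The median over the list was 42.6 CPM, and low members included Zfp352 and Tdpoz4, with means of 14.9 and 2.34 CPM. Zscan4f and Zscan4c (936, 731 and 720.4 CPM) were both highest in replicate 1. These are near-identical copies in 1 cluster, and how reads were shared between copies is not given in the sources used here, so the level of each copy is uncertain. In bulk RNA, few cells with much of a transcript and many cells with little cannot be told apart.

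The LIF pathway was expressed from receptor to target. Of 18 genes 16 reached 1 CPM in all 3 libraries, against 58.7% of protein-coding genes. The receptor gene Lifr stood at 33.6, 28.2 and 32.6 CPM, its partner Il6st, which encodes gp130, at 36.8, 48.8 and 46.1 CPM, and the kinase gene Jak1 at 74.1, 52.7 and 63.1 CPM. Stat3 stood at 46.7, 46.5 and 35.3 CPM and the feedback inhibitor Socs3, a direct STAT3 target, at 40.5, 36.0 and 33.3 CPM. The ligand gene Lif was low, at 6.81, 5.94 and 4.97 CPM, and the gene of the related cytokine Il6 had no count. Lifr, Il6st, Jak1, Stat3 and Socs3 were thus all over 25 CPM in every library, and both ligand genes were under 10 CPM. Not every member of the list was as high. The kinase genes Jak2 and Tyk2 had means of 17.2 and 15.3 CPM, and Socs2 and Cish had means of 6.05 and 1.46 CPM.

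Genes of the Wnt pathway were mixed. Of 19 genes 16 reached 1 CPM in all 3 libraries, against 58.7% of protein-coding genes. Ctnnb1, which encodes beta-catenin, stood at 486, 429.8 and 442 CPM. Tcf7l1, the repressor of pluripotency genes that beta-catenin counters, stood at 92.8, 84.5 and 85.2 CPM. The feedback target Axin2 stood at 69.3, 62.5 and 66.3 CPM and the homeobox target Cdx1 at 36.4, 35.7 and 32.9 CPM. Other textbook targets were far lower: T, which encodes Brachyury, stood at 1.47, 1.53 and 1.42 CPM and Myc at 0.140, 1.34 and 1.99 CPM.

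Genes of the FGF branch ranged widely within each role. Fgf4, the ligand that stem cells secrete, stood at 226, 245 and 249 CPM, whereas the ligand genes Fgf5 and Fgf15 had means of 0.970 and 0.859 CPM. The receptor gene Fgfr1 stood at 58.1, 75.3 and 67.6 CPM. Several feedback genes downstream of ERK were near the limit of 1 CPM: the phosphatase gene Dusp6 stood at 0.421, 1.02 and 1.85 CPM and Spry4 at 0.0702, 0.383 and 0.284 CPM. Not all of them were low. The ETS factor gene Etv5 stood at 114, 91.7 and 96.4 CPM and the inhibitor gene Spry2 at 48.4, 40.1 and 48.8 CPM, and Spred2 and Errfi1 had means of 24.2 and 24.1 CPM. In all, 13 of 20 genes of this branch reached 1 CPM in all 3 libraries, against 58.7% of protein-coding genes, and 9 reached 10 CPM. Immediate early genes, which growth factors switch on within minutes, passed 1 CPM in 21 of 25 cases, against 58.7% of protein-coding genes. They passed 10 CPM in 9 of 25, close to the share of protein-coding genes (7502 of 21122). The highest were Jund, Klf10 and Klf6, with means of 42.3, 37.9 and 30.9 CPM, and others were low. Egr1 stood at 2.88, 2.68 and 1.14 CPM, Fos at 0.562, 0.831 and 2.41 CPM and Egr2 at 0.211, 0.0639 and 0.639 CPM.

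The machinery that deposits and reads chromatin was present almost in full. All 25 genes of H2A.Z and its loaders reached 1 CPM in all 3 libraries, against 58.7% of protein-coding genes. The tagged gene H2afz stood at 78.8, 81.9 and 95.7 CPM, H2afv, which encodes the second H2A.Z protein, at 54.3, 39.7 and 61.7 CPM, and the loader ATPase gene Srcap at 267, 252 and 199.8 CPM. All 27 genes of RNA polymerase II pausing and elongation were present, among them Polr2a, the largest subunit, at 635, 512 and 531 CPM. Of 32 Polycomb genes 31 reached 1 CPM in all 3 libraries. Mtf2 and Jarid2, which recruit PRC2, stood at 523, 449 and 471 CPM and at 362, 338 and 314 CPM. The exception was Phf19, a further PRC2 partner, at 0.562, 0.128 and 1.42 CPM. All 15 genes of DNA methylation passed 10 CPM, against 7502 of 21122 protein-coding genes. The demethylase gene Tet1 stood at 419, 367 and 389 CPM and Dnmt3l, the cofactor of methylation in the germ line, was the lowest at 11.4, 11.8 and 17.1 CPM.

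Genes of growth and division were likewise present. All 22 genes of mitosis passed 10 CPM, against 7502 of 21122 protein-coding genes. They were led by Top2a (739, 684 and 744 CPM) and Mki67 (768, 699 and 655 CPM), a topoisomerase and a proliferation marker. Of 30 genes of DNA replication and the G1 to S step 29 reached 1 CPM, against 58.7% of protein-coding genes. The D cyclins were unequal: Ccnd3 stood at 88.2, 83.6 and 88.0 CPM, Ccnd1 at 10.7, 14.8 and 13.7 CPM and Ccnd2 at 0.702, 2.49 and 3.55 CPM. All 18 glycolysis genes and all 20 cholesterol synthesis genes were present. Among p53 targets, 18 of 19 reached 1 CPM, with the cell cycle inhibitor gene Cdkn1a at 50.6, 57.7 and 52.8 CPM and the death receptor gene Fas under 1 CPM at 0.632, 0.511 and 0.142 CPM.

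Primitive endoderm, mesoderm and neuroectoderm genes were present in shares near or below that of protein-coding genes (58.7%), mostly at low levels. Of 18 primitive endoderm genes 9 reached 1 CPM, of 20 mesoderm and definitive endoderm genes 9, and of 20 neuroectoderm genes 11. Only 5, 1 and 4 of these reached 10 CPM, against 7502 of 21122 protein-coding genes. The primitive endoderm regulator Gata6, which opposes Nanog in the early embryo, stood at 1.76, 0.447 and 0.710 CPM. Basement membrane genes on the same list ranged from high to low. Lamc1 was the highest (252, 216 and 224 CPM), Lama1 and Lamb1 had means of 64.4 and 63.8 CPM, and Col4a1 and Col4a2 had means of 13.0 and 8.72 CPM. Pax6, a regulator of eye and brain, stood at 0.211, 0.128 and 0.639 CPM, and Mesp1, of early heart mesoderm, at 0.491, 0.0639 and 0.142 CPM. Eomes, of mesoderm and trophoblast, stood at 6.88, 8.50 and 9.93 CPM. Trophoblast genes lay above the share of protein-coding genes at 1 CPM, with 15 of 18, and near it at 10 CPM, with 7 of 18. Tfap2c stood at 102, 74.2 and 96.8 CPM, whereas the lineage regulator Elf5 stood at 0.140, 0.767 and 0.142 CPM. Of 39 Hox genes 19 reached 1 CPM and 5 reached 10 CPM, led by Hoxd8 (46.4, 34.3 and 38.9 CPM) and Hoxb9 (36.8, 36.1 and 39.9 CPM).

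**Figure D4:**
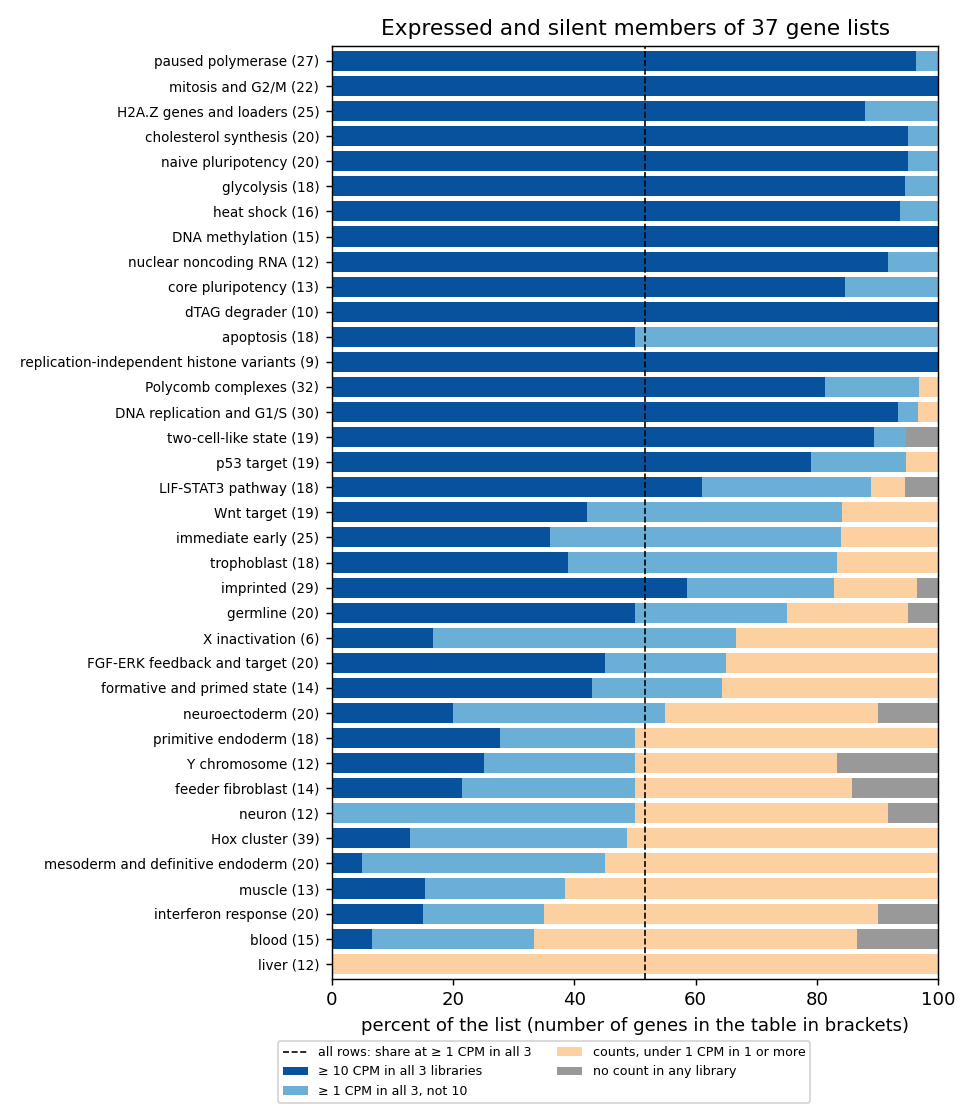
Share of each of 37 gene lists in 4 level classes, in percent, with the number of genes in brackets. The dashed line is the share of all rows at 1 CPM or more in all 3 libraries (51.7%); no liver gene reached it in all 3 libraries, and all naive genes did.

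Markers of other cell types that a culture could hold were mixed. Of 14 genes on the feeder fibroblast list, 7 reached 1 CPM in all 3 libraries, against 58.7% of protein-coding genes. At 10 CPM it was 3, against 7502 of 21122 protein-coding genes. Col3a1 and S100a4 had no count, Lum and Dcn had 1 count each over the 3 libraries, and Postn stood at 1.26, 0 and 1.42 CPM. Col1a1, the chain of type I collagen, stood at 12.2, 8.24 and 5.11 CPM, Thy1 at 12.9, 7.92 and 10.6 CPM, and Col1a2 at 3.58, 1.79 and 3.34 CPM. Fibronectin, which stem cells are also known to make, was high: Fn1 stood at 1357, 1242 and 1258 CPM. The filament gene Vim stood at 53.5, 36.9 and 40.0 CPM, the matrix gene Fbln1 at 32.9, 25.7 and 35.3 CPM and the receptor gene Pdgfrb at 12.8, 11.9 and 8.73 CPM. Acta2 (0.842, 3.26 and 1.70 CPM) and Tagln (0.140, 1.28 and 0.568 CPM) lay to both sides of 1 CPM. The list thus ran from 0 to well above 1 CPM without a clear division. Of 15 blood genes 5 reached 1 CPM, against 58.7% of protein-coding genes. The blood marker Ptprc stood at 0.351, 0 and 0.0710 CPM, whereas the T cell receptor complex gene Cd3e stood at 11.4, 15.9 and 13.7 CPM. Cd4 stood at 3.51, 2.24 and 2.34 CPM, and Itgam and Spi1 had means of 2.26 and 2.03 CPM. No liver gene of 12 reached 1 CPM in all 3 libraries. Of 20 interferon response genes 7 reached 1 CPM, against 51.7% of all rows. Ifnb1, which encodes the interferon itself, had no count, and the response gene Isg15 had 3 counts, all in replicate 2. The transducer Stat2 was present at 33.3, 45.3 and 46.8 CPM.

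Many germline and imprinted genes were present. Of 20 germline genes 15 reached 1 CPM in all 3 libraries, against 58.7% of protein-coding genes. Stra8, known for entry into meiosis, stood at 380.1, 365 and 394 CPM, Dazl, an RNA-binding protein of germ cells, at 74.9, 94.4 and 83.2 CPM and the helicase gene Ddx4 at 48.1, 59.4 and 43.4 CPM. Late sperm genes were at or near 0: Prm1 had no count and Tnp1 had 4 counts, all in replicate 3. Of 29 imprinted genes 24 reached 1 CPM, against 51.7% of all rows. The growth factor gene Igf2 stood at 273, 243 and 191 CPM and the neighbouring noncoding H19 at 229, 195 and 149.5 CPM, both lowest in replicate 3. Peg10 was also lowest there, at 773, 632 and 524 CPM. Snrpn had no count, although its row shares a locus with other transcripts and the counting rule for overlaps is not given in the sources used here.

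Genes of the senses, the immune repertoire and microRNAs made up a large minority of the silent genes. Of the 4243 genes with no count, 780 were olfactory receptors (18.4%), 232 vomeronasal receptors, 230 immunoglobulin segments, 182 T cell receptor segments and 394 microRNAs. These 5 families made up 42.8% of the silent genes. Gm-numbered rows, which are predicted genes, were 667, Rik clones were 481, and 1148 (27.1%) were protein-coding genes outside all of these. Of 1125 olfactory receptor genes 2 reached 1 CPM in all 3 libraries, and of the 253 immunoglobulin and 220 T cell receptor segments none did. No beta-defensin of 43 and no keratin-associated protein gene of 55 reached 1 CPM in all 3 libraries. Families at the other end were the ribosomal protein genes, with 50 of 51 Rpl and 32 of 32 Rps genes present, and the numbered Zfp zinc finger genes, with 356 of 397 (89.7%).

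A small number of RNAs took much of the sequencing. The 10 rows with the most counts took 27.5% ± 2.84 and the 100 with the most took 40.2% ± 2.41 (SD, n = 3). The ribosomal RNA precursor row Rn45s led, at 11.4%, 16.2% and 14.7% of the counts, and was lowest in replicate 1. The mitochondrial ribosomal RNAs came next, with mt-Rnr2 at 38174, 35937 and 36573 CPM and mt-Rnr1 at 33083, 32502 and 32738 CPM, and were highest in replicate 1. Rn18s, of the small ribosomal subunit, was also lowest there, at 16769.6, 28627 and 25547 CPM. Lars2 was also lowest there: it is a mitochondrial leucine tRNA ligase gene and stood at 3746, 6235 and 6328 CPM. Whether reads of ribosomal RNA enter the Lars2 row was not tested. Noncoding RNAs of the nucleus were also among the 20 rows with the most counts, with Rpph1, the RNA of RNase P, at 8281, 7893 and 9209 CPM and Malat1 at 5102, 4801 and 5142 CPM. Among nuclear protein-coding genes other than Lars2, the most counts went to the chaperones Hsp90aa1 (7053, 6558 and 6682 CPM), Hsp90ab1 (5591, 5023 and 5017 CPM) and Hspa8 (3695, 3301 and 3645 CPM). The stress-induced chaperone genes Hspa1a (9.83, 15.3 and 13.0 CPM) and Hspa1b (13.9, 17.2 and 15.8 CPM) were low.

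The 3 libraries were alike but differed by more than counting error. Over the 8876 genes with a mean of at least 10 CPM, the median SD of log2(CPM + 1) was 0.17. Across these genes, which are not independent replicates, Pearson's r between pairs of libraries was 0.973 to 0.979. Of 15894 genes with at least 10 expected counts in each library, 11485 (72.3%) varied beyond counting error by a chi-square test with Benjamini-Hochberg adjustment over TMM-scaled libraries. With 1 library left out, the test has fewer counts to work on. The number was then 7038 of 15920 without replicate 1, 7797 of 15838 without replicate 2 and 8313 of 15906 without replicate 3. For pairs, chi-square per degree of freedom was taken against unscaled library totals, as a mean over the 8876 genes. It was 38.0 for replicates 1 and 2, 25.3 for 1 and 3, and 11.4 for 2 and 3. No library was thus a copy of another. Such a mean gives weight to rows with very many counts, and the median over genes in the test of all 3 libraries was 7.00. The closest pair was replicates 2 and 3. The median log2 ratio of replicate 1 to replicate 2 was 0.11 in CPM, in the same direction as the lower ribosomal RNA share of replicate 1, whose part was not tested.

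Spread fell with level but did not fall as far as counting error. At 1 to 2 CPM the median coefficient of variation was 53.5%, where counting alone gives 22.0%. At 10 to 20 CPM it was 18.7% against 6.93%, and at 1000 CPM or more 4.87% against 0.688%. Among genes of at least 10 CPM, 191 (2.15%) spanned more than 2-fold. The number was 53, 79 and 99 over the pair without replicate 1, 2 or 3, where a pair spans less by construction. Replicate 2 was the library more than 2-fold below both others in 17 genes, and replicate 1 was more than 2-fold above both others in 7.

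**Figure D5:**
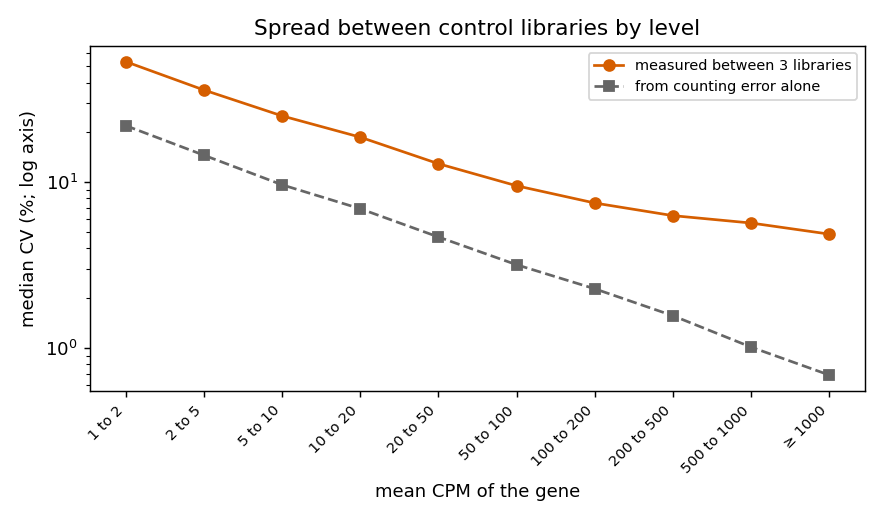
Median coefficient of variation between the 3 control libraries, in percent on a log axis, by mean CPM of the gene. Circles are measured values and squares are what counting error alone gives; at 1000 CPM or more they are 4.87% and 0.688%.

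Genes were ranked by spread with predicted genes, Rik clones, microRNAs and small nucleolar RNAs left out by name, so rows left out may spread more than those named. Among the genes ranked, the largest spread was that of Mrpl3, a mitochondrial ribosomal protein gene, at 171, 25.7 and 23.3 CPM. Replicate 1 alone was high, and the other two libraries differed little. Next came Mospd3 (14.7, 7.92 and 32.1 CPM) and Mtmr10, a myotubularin-related gene (4.98, 20.4 and 13.5 CPM), in which the high library was replicate 3 and replicate 2. The other 9 of the 10 ranked genes with the largest spread had a mean under 20 CPM. With the same names left out, the most even genes of at least 100 CPM included the histone gene Hist1h2bp (239.0, 239.5 and 239.4 CPM). Others were the chaperonin gene Hspd1 (336, 335 and 334 CPM) and the transcription coactivator gene Ccar1 (206, 207 and 206 CPM). The marker genes are read against genes of their own level. The SD of log2(CPM + 1) was 0.06 for Nanog, 0.07 for Tet2 and 0.11 for Tfcp2l1, against a median of 0.09 and an upper quartile of 0.13 over the 444 genes of 200 to 500 CPM. It was 0.06 for Dppa5a, against a median of 0.08 at 500 to 1000 CPM. Zscan4f, at 0.27, lay above the upper quartile of 0.11 for genes at 1000 CPM or more.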

How the data were processed

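The table the authors deposited holds whole-number counts for each gene in 6 RNA-seq libraries, with no scaling. The 3 control columns were used, matched to samples by title. Per the labels' protocols, column-purified RNA received ERCC RNA (0 rows carry an ERCC name) and was sequenced as 75-base read pairs. The same labels describe depletion of ribosomal RNA and a stranded kit for messenger RNA. The submitters' processing notes name STAR 2.7.2b, featureCounts, edgeR, limma and mm10. What each did, with which annotation, strand setting and treatment of reads with several matches, is not given in the sources used here, so overlapping, antisense and copied genes could not be told apart.

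The 903 rows with no symbol (2.20%, 2.37% and 2.33% of counts) entered neither the library sizes nor the test. Totals over all rows were 14565322, 16033011 and 14427884. RefSeq tables of GRCm38.p6 gave gene type and chromosome for 97.4% of named rows and the promoter sequences; they give no exon length, so levels are not per length. CPM, SD and classes were computed in Python 3.11.15. TMM factors (1.04, 0.968 and 0.993) and the common dispersion of 0.0472 (14303 genes) came from edgeR 4.0.16 in R 4.3.3. Each gene's 3 counts were tested by chi-square against TMM-scaled library sizes, with 2 degrees of freedom and at least 10 expected counts, at a Benjamini-Hochberg adjusted p under 0.05. The test was tested on simulated data. Log2 values use a pseudocount of 1. A gene with several promoters was given their mean ratio, or any match of a motif.

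The control group was picked for description, and the 37 lists (696 genes, 7 not matched) were drawn up, with earlier results of these data known. Genes are named by this rule: the 20 rows and 20 protein-coding genes with the most CPM; the marker genes; in each list up to 4 with the highest and 2 with the lowest mean; the 10 largest SD at a mean of 10 CPM or more and the 10 smallest at 100 or more, without names of predicted genes; and 3 genes on each side of 1 CPM. Genes outside it, such as Sox2, Esrrb, Lifr, Stat3, Socs3, Lif, Dusp6, Egr1, Fos, H2afz, H2afv, Ccnd1, Ccnd3, Cdkn1a, Neurod1, Olfr15, Setd5, Rbm25, Nr0b1, Spred2, Errfi1, Zscan4b, Tac1 and Gabra2, were chosen after their values were seen. Alternatives were other CPM limits, scaling (TMM, DESeq2 1.42.0 size factors, totals without ribosomal RNA or with unnamed rows), pseudocounts, filters and leaving out each library; those on promoters were added after the data were seen.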

Additional observations from a re-analysis of the deposited data

How the results depend on the processing

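The number of genes at or above 1 CPM in all 3 libraries lay between 12311 and 14696 over its 9 alternatives (13593 as reported), and that at or above 10 CPM between 5746 and 10200 (8071). Genes with no count rose from 4243 to 6469 when up to 3 counts in all were allowed, and to between 4849 and 5427 without 1 library. The share of the 100 rows with the most counts was 22.3% without ribosomal RNA rows. The median SD of log2 CPM was 0.149 with a pseudocount of 5, 0.232 for genes of at least 1 CPM, 0.115 for genes of at least 50 CPM, and 0.118 to 0.150 when a single library was left out. Genes spanning more than 2-fold numbered 551 at a mean of at least 5 CPM, 3 at 50 CPM, and 53 to 99 without a single library. Genes varying beyond counting error numbered 7038 to 8313 without a single library. The common dispersion was 0.120 with no filter on low counts and 0.0395 to 0.0553 without a single library. The promoter ratio of silent genes was 0.130 with the promoter of highest ratio or the 250 bases alone and 0.150 without receptor genes, and that of genes at 100 CPM or more was 0.881 and 0.830. The other alternatives on counts stayed within 1.5 times the value reported.

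No paired analysis was possible because only the control group is described and no test between groups was made. With 14.1 to 15.7 counts at 1 CPM, depth limits what can be said of genes near that level. Exon lengths, read assignment among copies and the source of each culture are not known here, and ribosomal RNA content, lowest in replicate 1, moves with the CPM of other genes in that library; its part in the spread was not tested.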

Other observations

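The mitochondrial genome, whose genes are single uninterrupted stretches, allows levels to be compared per length. The ribosomal RNAs mt-Rnr1 and mt-Rnr2 stood at 34318 ± 306 and 23321 ± 729 CPM per kb (SD, n = 3 here and below). Among the protein-coding genes, ATP6, of the ATP synthase, stood at 8557 ± 394 CPM per kb and COX1, of cytochrome oxidase, at 5365 ± 283. ND6, the protein-coding gene on the opposite strand, was the lowest at 246 ± 46.8 CPM per kb. The range from ATP6 to ND6 exceeded the spread between libraries, but neighbours in the order did not all differ beyond it: ND1 stood at 2053 ± 157 and CYTB at 2031 ± 131, and ND5 at 1163 ± 147 and ND4 at 1122 ± 96.7 CPM per kb. The 14 histone H2A genes of the Hist1 cluster, near-identical copies whose messages lack a poly(A) tail, together made up 12996 ± 146 CPM.

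The sex chromosomes held a smaller share of expressed genes than any autosome. Of 927 protein-coding X genes 418 (45.1%) reached 1 CPM in all 3 libraries, against 50.2% (chromosome 7) to 70.2% (chromosome 12) on single autosomes. The median mean level of those expressed was 14.0 CPM on X and 15.2 to 22.2 CPM on autosomes. On Y, 6 of 218 protein-coding genes reached 1 CPM, including the helicase gene Ddx3y (26.7, 16.2 and 26.4 CPM), Eif2s3y (10.7, 14.7 and 17.2 CPM) and Uty (11.9, 13.5 and 11.4 CPM), while Kdm5d stood at 0.562, 0.703 and 0.0710 CPM. Xist, the RNA that coats an inactive X, stood at 2.25, 4.86 and 4.68 CPM and its antisense partner Tsix at 10.6, 11.1 and 8.73 CPM; without stated use of strand, their reads could not be told apart.

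Replicate 1 was the highest library for 4196 of 8246 protein-coding genes of at least 10 CPM, and its share of ribosomal RNA counts was the lowest (20.6% against 26.1% and 24.5%). It was also highest in 25 of 28 rows typed as ribosomal RNA other than the Rn45s and Rn18s rows, in 41 of 59 small nucleolar RNAs and in 10 of 14 small nuclear RNAs. The part of ribosomal RNA content in these counts was not tested.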
